A study of Homo sapiens with 4 samples.

Results

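The clustered protocadherins are cell surface adhesion proteins encoded by a row of neighbouring genes on the long arm of chromosome 5. The genes described here were those whose symbol marks a member of the alpha, beta or gamma cluster on that chromosome. They numbered 55 of the 57879 genes listed, with 16 alpha, 18 beta and 21 gamma genes. The symbols PCDHA14, PCDHB17 and PCDHB18, which are known as pseudogenes, met this rule, and PCDHGB5 was not analysed here. Expression was measured by RNAseq in T24 cells, a human bladder carcinoma line, with 2 libraries from cells given the empty vector (EV) and 2 from cells expressing the TET1 catalytic domain (TET1-CD). TET1 is a dioxygenase that oxidises 5-methylcytosine in DNA. The study's methods describe lentiviral delivery and puromycin selection of the cells, and the sources used here do not state whether single clones were picked. The labels call the source of all 4 libraries induced but name no inducing agent. The labels number the libraries without saying whether they came from separate cultures, so the p-values measure only the spread between these libraries, which may be technical.

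Each gene of the alpha and gamma clusters has its own large first exon with its own promoter, and this exon is spliced to exons that the whole cluster shares. The beta genes are usually a single exon each and share no such exons. In neurons, a cell uses a small choice of these promoters, and the resulting proteins bind their own kind on a neighbouring cell, which lets a neuron tell its own branches from those of others. The insulator protein CTCF and cohesin bind near the promoters and link them to distant enhancers, while DNA methylation by DNMT3B and the chromosomal protein SMCHD1 are known to keep promoters of the clusters silent. The last genes of the alpha and gamma clusters, named the C types, are known to be used more uniformly than the others. In several cancers, the region is known for dense DNA methylation.

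Most promoters of these genes, but not all, are known to share a short conserved element with the core CGCT. Stretches of 120 bases that end just before the start of transcription follow for 11 members, on the plus strand of RefSeq GRCh38.p14, with every CGCT in capitals. The first 7 belong to members that rose in TET1-CD cells. The next 3 belong to the members with most counts, which did not change by 2-fold, and PCDHA6 stands for the alpha cluster, which was nearly silent.
PCDHB5 (chr5:141135086-141135205): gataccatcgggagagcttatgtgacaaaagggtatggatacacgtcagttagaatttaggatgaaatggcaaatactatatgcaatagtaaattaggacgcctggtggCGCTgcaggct
PCDHB13 (chr5:141213799-141213918): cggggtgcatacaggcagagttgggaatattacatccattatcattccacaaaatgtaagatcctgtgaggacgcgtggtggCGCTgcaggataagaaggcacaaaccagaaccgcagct
PCDHGA1 (chr5:141330394-141330513): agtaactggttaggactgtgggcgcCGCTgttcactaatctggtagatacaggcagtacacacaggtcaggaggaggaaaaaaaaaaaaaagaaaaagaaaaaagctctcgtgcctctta
PCDHGA2 (chr5:141338640-141338759): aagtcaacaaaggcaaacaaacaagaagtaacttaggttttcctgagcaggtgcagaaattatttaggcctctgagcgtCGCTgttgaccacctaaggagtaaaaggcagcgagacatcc
PCDHGB1 (chr5:141349979-141350098): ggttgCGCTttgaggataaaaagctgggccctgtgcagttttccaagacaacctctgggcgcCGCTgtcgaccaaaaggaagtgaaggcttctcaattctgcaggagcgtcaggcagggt
PCDHGB4 (chr5:141387578-141387697): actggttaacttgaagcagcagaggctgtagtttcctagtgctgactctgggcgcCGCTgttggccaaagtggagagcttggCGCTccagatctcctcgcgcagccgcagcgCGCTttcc
PCDHGB6 (chr5:141407901-141408020): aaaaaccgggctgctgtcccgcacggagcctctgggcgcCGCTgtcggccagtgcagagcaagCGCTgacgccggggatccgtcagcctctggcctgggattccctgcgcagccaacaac
PCDHB2 (chr5:141094495-141094614): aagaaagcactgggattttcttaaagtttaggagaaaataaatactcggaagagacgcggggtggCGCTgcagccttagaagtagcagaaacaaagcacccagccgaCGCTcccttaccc
PCDHGA10 (chr5:141412867-141412986): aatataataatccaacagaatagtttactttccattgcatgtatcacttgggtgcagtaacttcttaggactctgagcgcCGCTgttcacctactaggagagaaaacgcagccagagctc
PCDHGC3 (chr5:141475846-141475965): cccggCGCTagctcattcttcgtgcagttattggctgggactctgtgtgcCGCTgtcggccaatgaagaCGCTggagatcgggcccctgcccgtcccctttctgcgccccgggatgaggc
PCDHA6 (chr5:140827840-140827959): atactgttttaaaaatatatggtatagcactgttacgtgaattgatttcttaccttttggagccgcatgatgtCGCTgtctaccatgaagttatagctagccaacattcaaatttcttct

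Of the 55 members, 46 had a RefSeq promoter window of 300 bases, of which 250 lay before the start. The remaining 9 had none, among them PCDHB6, PCDHGA12 and PCDHGC5. Read along each gene's own strand, which is the plus strand for the members, the letters CGCT occurred in 45 of the 46 windows (97.8%). PCDHA9 had none, and the share was 54.3% in 35116 windows of all RefSeq genes. On either strand the shares were 97.8% and 70.0%. Within the last 100 bases before the start, 43 of 46 windows (93.5%) held it, beside 28.7% of all windows. A longer word of 9 bases, chosen as the most shared in each cluster after the sequences were read, was GGTGGCGCT in 13 of 14 beta windows, GATGTCGCT in 9 of 13 alpha windows and GCGCCGCTG in 9 of 19 gamma windows. Either strand of all RefSeq windows held these words in 0.501%, 0.105% and 1.28%, respectively. CGCT was taken as the letters common to these words, which were picked from these same windows. The beta word stands in the PCDHB5 and PCDHB13 stretches and also in that of PCDHB2, so that members that rose and members that did not carried it. Likewise, the gamma word occurred in PCDHGA1, PCDHGB1, PCDHGB4 and PCDHGB6, which rose, and in PCDHGA10, which did not, but not in PCDHGA2, which rose. A match of letters describes these windows and is by itself neither the conserved element nor a measured binding site. The windows held a median of 7 CpG dinucleotides (range 2 to 27), beside 14 in all RefSeq windows. Divided by the number that the C and G bases of a window predict, the median was 0.591, beside 0.579 in all RefSeq windows. Relative to base content, the windows of the members thus resembled all RefSeq windows, and both medians lay below the predicted number. The 7 windows of members that rose had a median of 8 (range 4 to 16), the 20 of tested members that were not called a median of 7 (range 2 to 23), and the 19 of members that were not tested a median of 7 (range 3 to 27). The number of CpG dinucleotides therefore overlapped between the 3 sets, and DNA methylation itself was not analysed here.

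**Figure D1:**
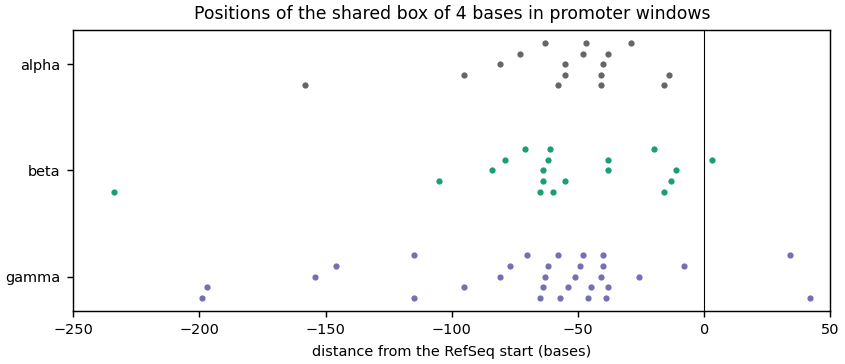
Positions of the letters CGCT on the plus strand of 46 promoter windows (x axis, bases from the RefSeq start; negative values lie before it), in rows for the alpha, beta and gamma clusters, with points shifted vertically so that they do not overlap. Most points lie in the last 100 bases before the start, where 43 of 46 windows hold at least 1.

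The libraries held 20295266 and 17442143 estimated fragments for EV and 17507868 and 19533445 for TET1-CD. TET1 had 111 and 83 counts with EV against 2939 and 3310 with TET1-CD, as the labels say. The quasi-likelihood test of edgeR, with Benjamini-Hochberg adjustment over all genes tested, put its log2 fold change at 5.02 (SE, the standard error of the fit, 0.08, adjusted p = 4.9e-10). Of 10 urothelial markers, 6 had enough counts for a test. The keratins KRT7, KRT8 and KRT18 had at least 10759 counts in every library, whereas KRT5 was at 0 in all 4 and UPK1B, UPK2 and UPK3A had 6 counts or fewer in each. T24 cells thus carried epithelial keratins but not the uroplakins of mature urothelium in these libraries.

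Members of the alpha cluster were close to silent, PCDHGC3 carried most of the gamma counts, and the remaining beta and gamma genes were expressed at low levels. The counts of the alpha cluster summed to 0 and 3 in EV against 9 and 14 in TET1-CD cells. Only 8 of its 16 genes had a count in any library, and none had enough for a test. On the scale of FPKM, which divides by transcript length and library size, PCDHGC3 was first among the members in both groups, with 36.9 and 33.9 in EV against 26.7 and 26.3 in TET1-CD cells. PCDHGA10 was second, with an FPKM of 5.20 and 5.31 in EV against 4.84 and 5.06 in TET1-CD cells. PCDHB2 followed, with a mean FPKM of 1.88 in EV and 1.77 in TET1-CD cells. The gaps between these 3 levels exceeded the spread between libraries. Every other member had a mean FPKM under that of PCDHB2 in both groups.

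Of the 55 members, 30 had enough counts for a test (11 beta and 19 gamma genes). The other 25 had not, among them 7 beta genes and the gamma genes PCDHGA3 and PCDHGA7. A member was called when its fold change was 2 or more and its adjusted p under 0.05. Of the 30 tested, 9 rose in TET1-CD cells (30%), beside 2.72% of the 14573 genes tested. None fell, in edgeR or DESeq2, beside 1.04% of all genes tested in edgeR. With a fold change of 2 and an unadjusted p under 0.05, 10 members were higher, beside 3.34% of all genes tested, and 0 lower, beside 1.54%. The members that rose were PCDHB5, PCDHB6 and PCDHB13 in the beta cluster and PCDHGA1, PCDHGA2, PCDHGB1, PCDHGB4, PCDHGB6 and PCDHGA12 in the gamma cluster. The filter on low counts favours genes that are high in either group: 23 members reached its minimum in both EV libraries, and of these 4 rose (PCDHB13, PCDHGA1, PCDHGB1 and PCDHGB6), beside 1.4% of the 13859 genes that reached it in both EV libraries. Of the 23 members, 0 fell in edgeR, beside 1.1% of those genes. In 14 tested members both TET1-CD libraries lay above both EV libraries, beside 30.8% of all genes tested. In 7 they lay below, beside 30.2%, and in 9 the groups overlapped. The median log2 fold change of the tested members was 0.11, with 0.76 in the beta and -0.03 in the gamma cluster, beside 0.00 over all genes tested. Without TET1-CD replicate 1, 4 members were called higher, and without TET1-CD replicate 2, 5. The calls over all genes, in both directions, were also fewer, with 323 and 359 in place of 549. In bulk RNA, more cells with a transcript and more transcript per cell cannot be told apart.

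**Figure D2:**
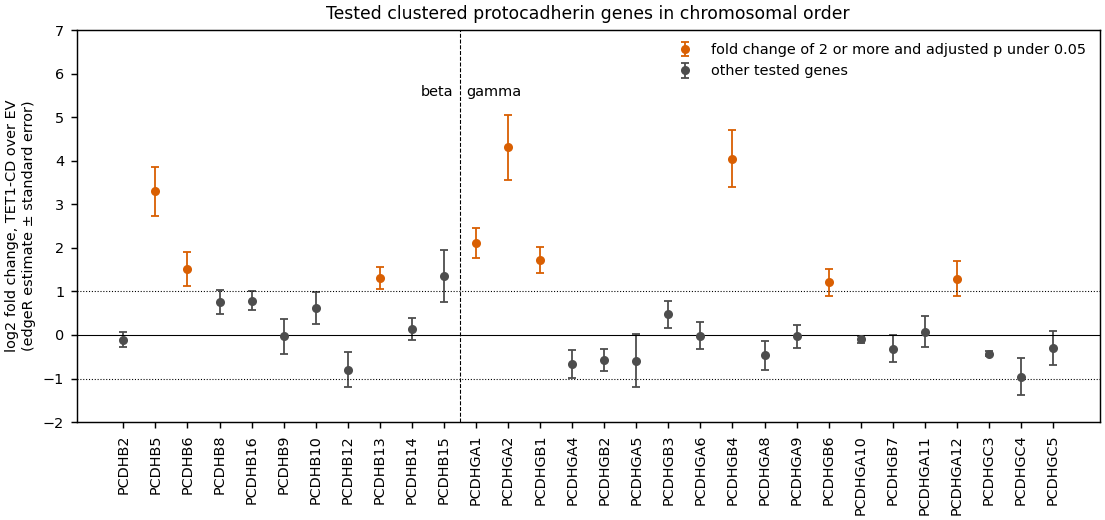
Log2 fold change of TET1-CD over EV (y axis; edgeR estimate, bars show 1 standard error) for the 30 tested members in chromosomal order (x axis), with 2 libraries per group. The 9 members called higher, in orange, lie above the dotted line of a 2-fold rise, and no member is called below the lower dotted line.

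In the beta cluster, PCDHB5 had 2 and 3 counts with EV against 28 and 23 with TET1-CD. Its counts were thus near the lower limit in EV, which was set at 3 counts per library. The ratio of counts, corrected for library size, was 10.3 (95% exact conditional interval 4.14 to 33.1, which covers counting error only), and the fitted log2 fold change was 3.30 (SE 0.56, adjusted p = 0.00314 from edgeR). PCDHB6, the next beta gene on the chromosome, had 10 and 19 counts with EV against 34 and 49 with TET1-CD, which edgeR fitted as a log2 fold change of 1.51 (SE 0.39, adjusted p = 0.0237). PCDHB13 had 28 and 29 counts with EV against 71 and 69 with TET1-CD. All of its TET1-CD counts were more than 2 times the EV counts, and its log2 fold change was 1.31 (SE 0.24, adjusted p = 0.00512 from edgeR). PCDHB16 had 46 and 44 counts with EV against 64 and 91 with TET1-CD, and its log2 fold change of 0.79 (SE 0.22, edgeR adjusted p = 0.0306) passed the test without reaching 2-fold. The adjusted p of PCDHB16 was 0.167 in DESeq2, and from edgeR it was 0.0900, 0.0779 and 0.287 without EV replicate 1, TET1-CD replicate 1 and TET1-CD replicate 2, respectively. In these 4 genes both TET1-CD libraries lay above both EV libraries, beside 30.8% of all genes tested. The 4 genes were picked because they passed the adjusted p, so this order adds no support. Without TET1-CD replicate 1, edgeR's adjusted p was 0.0541 for PCDHB5, 0.0743 for PCDHB13 and 0.0942 for PCDHB6. The call of PCDHB6 was also lost without TET1-CD replicate 2 (adjusted p = 0.213 in edgeR) and without EV replicate 1 (0.0936, log2 fold change 1.01), and its log2 fold change was 2.16 without EV replicate 2.

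Other beta genes did not pass. PCDHB2, the beta gene with most counts, had 94 and 99 counts with EV against 91 and 87 with TET1-CD, so its groups differed by less than their spread after normalization. PCDHB8 had 47 and 26 counts with EV against 51 and 71 with TET1-CD (log2 fold change 0.76, adjusted p = 0.0791 from edgeR). PCDHB15 had 4 and 8 counts with EV against 10 and 21 with TET1-CD (log2 fold change 1.35, adjusted p = 0.141 from edgeR). PCDHB12 had the lowest log2 fold change of the tested beta genes, -0.79 (adjusted p = 0.210 from edgeR), with 26 and 23 counts for EV against 9 and 19 for TET1-CD. The beta genes thus ranged from a fitted rise of 3.30 to a value of -0.79 on the log2 scale within a stretch of single-exon genes.

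The gamma cluster holds A, B and C type genes, and near its start on the chromosome PCDHGA1, PCDHGA2 and PCDHGB1 rose. PCDHGA1 had 12 and 26 counts with EV against 72 and 94 with TET1-CD, which edgeR fitted as a log2 fold change of 2.12 (SE 0.34, adjusted p = 0.00235). The fitted value was 2.89 without EV replicate 2 and 1.56 without EV replicate 1. In EV replicate 1 the 12 counts were assigned to a single-exon transcript without the shared exons, and in the other 3 libraries the counts were assigned to the transcript with them. PCDHGA2 had 2 and 0 counts with EV against 20 and 24 with TET1-CD. With so few EV counts the ratio of counts was 22.2, with a 95% exact conditional interval of 5.80 to 189. Its fitted log2 fold change of 4.31 (adjusted p = 0.00348 from edgeR) depends on the prior count and was between 3.50 and 7.43 under the alternatives tried, with the highest value without EV replicate 1, which held all of its EV counts. PCDHGB1 had 21 and 17 counts with EV against 48 and 78 with TET1-CD, which edgeR fitted as a log2 fold change of 1.73 (SE 0.30, adjusted p = 0.00348). PCDHGA3, which lies between PCDHGA2 and PCDHGB1, had 0 and 4 counts with EV against 6 and 2 with TET1-CD and was not tested. Without TET1-CD replicate 2, edgeR's adjusted p of PCDHGB1 was 0.0670.

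Further along the gamma cluster, PCDHGB4 had 4 and 0 counts with EV against 36 and 33 with TET1-CD. The ratio of its counts was 17.4 (95% exact conditional interval 6.51 to 65.8), and its fitted log2 fold change was 4.05 (adjusted p = 0.00236 from edgeR), with 3.19 to 8.08 under the alternatives and the highest value again without EV replicate 1. Both TET1-CD libraries thus carried a gene that was at or near the lower limit in EV. PCDHGB6 had 39 and 17 counts with EV against 64 and 63 with TET1-CD, which edgeR fitted as a log2 fold change of 1.21 (SE 0.31, adjusted p = 0.0221). PCDHGA12 had 10 and 17 counts with EV against 35 and 31 with TET1-CD, which edgeR fitted as a log2 fold change of 1.29 (SE 0.40, adjusted p = 0.0484). The calls of PCDHGB6, PCDHGA12 and PCDHB6 were lost with DESeq2, at adjusted p-values of 0.0535, 0.175 and 0.0688. In edgeR, the adjusted p of PCDHGB6 was 0.165 without TET1-CD replicate 1 and 0.0823 without TET1-CD replicate 2, and its log2 fold change fell short of 2-fold (0.82) without EV replicate 2. That of PCDHGA12 was 0.194 without EV replicate 1, 0.323 without TET1-CD replicate 1 and 0.157 without TET1-CD replicate 2.

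The gamma genes with most counts did not rise. PCDHGC3, a C type gene, had 3526 and 2784 counts with EV against 2203 and 2420 with TET1-CD, or 3129 ± 176 (SD, n = 2) and 2324 ± 28.2 (SD, n = 2) after normalization. Its log2 fold change was -0.43 (SE 0.06, adjusted p = 0.000968 from edgeR), with both TET1-CD libraries below both EV libraries, and it was the single member with a lower level that passed the adjusted p. Its log2 fold change was between -0.49 and -0.38 under the alternatives tried. The other C types, PCDHGC4 and PCDHGC5, had 12 to 41 counts per library and log2 fold changes of -0.96 (adjusted p = 0.151 from edgeR) and -0.30 (adjusted p = 0.632 from edgeR). PCDHGC4 passed (adjusted p = 0.0416) once EV replicate 2 was left out. The C types of the alpha cluster, PCDHAC1 and PCDHAC2, had 0 counts in all 4 libraries. PCDHGA10 had 487 and 428 counts with EV against 391 and 456 with TET1-CD, 456 ± 8.56 (SD, n = 2) and 425 ± 12.8 (SD, n = 2) after normalization, and a log2 fold change of -0.10 (adjusted p = 0.471 from edgeR). PCDHGB2, the B type gene with most counts in EV, had 64 and 89 counts with EV against 46 and 57 with TET1-CD, a log2 fold change of -0.57 (adjusted p = 0.150 from edgeR). Its adjusted p from edgeR was 0.0186 without EV replicate 1 (log2 fold change -0.90) and 0.0485 with no filter on low counts, whereas its log2 fold change was -0.19 without EV replicate 2.

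**Figure D3:**
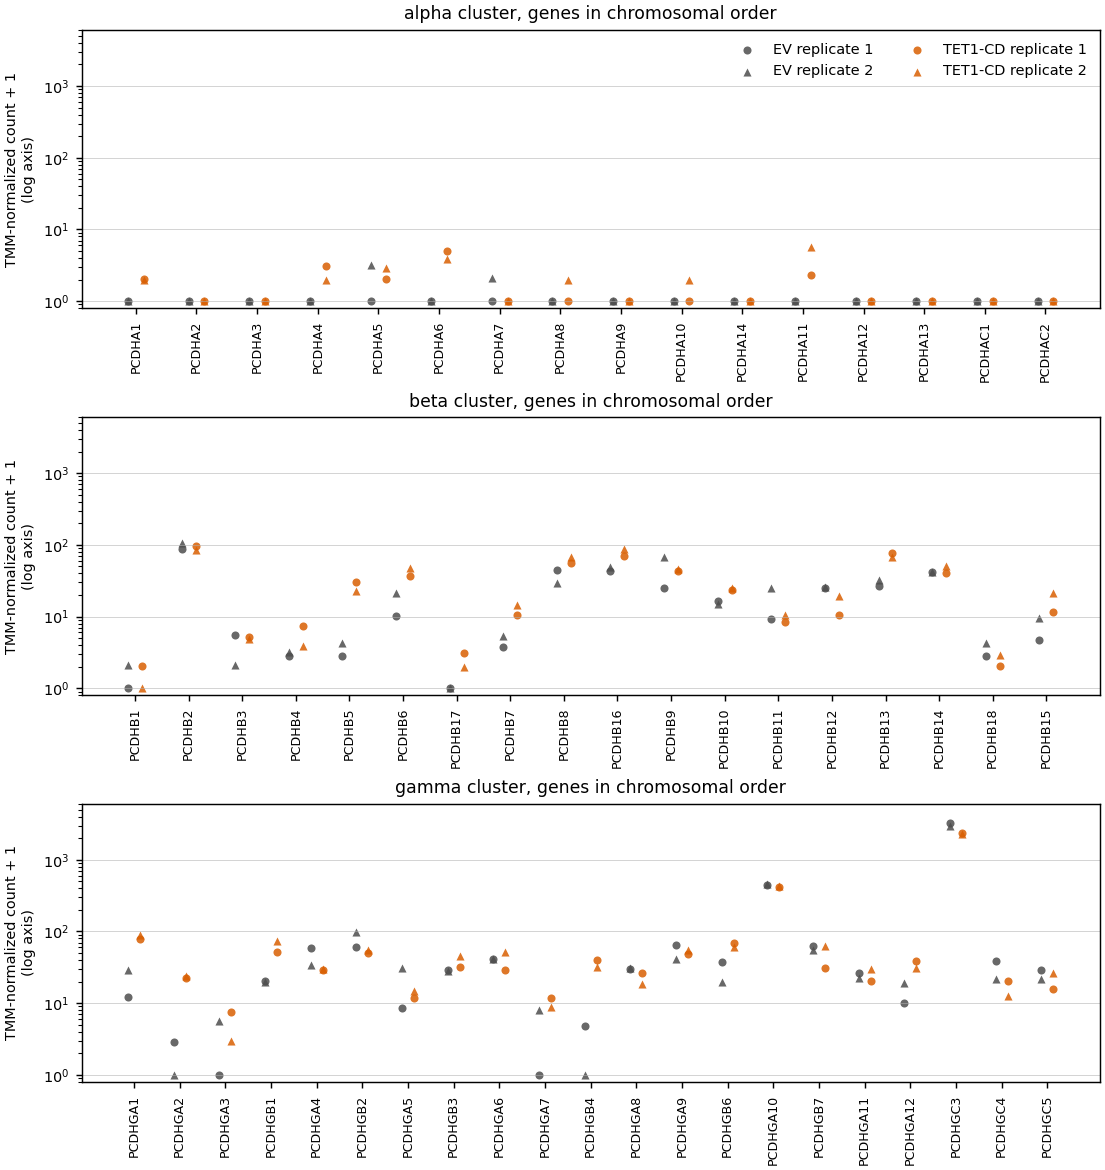
TMM-normalized counts plus 1 (y axis, log scale) of all 55 members in chromosomal order (x axis), with panels for the alpha, beta and gamma clusters, 1 symbol per library, grey for EV and orange for TET1-CD. The alpha genes stay near the bottom of the axis, PCDHGC3 stands above all others with its TET1-CD symbols below its EV symbols, and PCDHB5, PCDHGA2 and PCDHGB4 show the widest gaps between orange and grey.

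**Figure D4:**
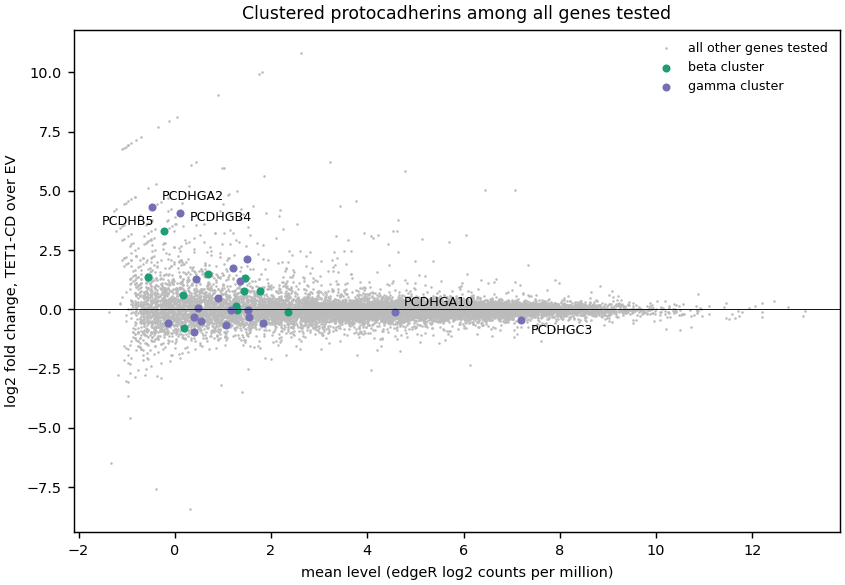
Log2 fold change of TET1-CD over EV (y axis) against mean level (x axis, log2 CPM) for the 14573 genes tested, with the tested beta genes in green and gamma genes in purple. The members with fold changes above 2 on the log2 scale lie at low mean levels, where all genes spread widely, and PCDHGC3 lies at the highest level of the members, below the line of no change.

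Few counts were measured in the alpha cluster. PCDHA11 had 0 and 0 counts with EV against 1 and 5 with TET1-CD, PCDHA6 had 0 and 0 in EV against 4 and 3 in TET1-CD cells, and PCDHA5 had 0 and 2 in EV against 1 and 2 in TET1-CD cells. No alpha gene had more than 5 counts in a library. The sum over the 16 genes was 3 in EV, all from replicate 2, and 23 in TET1-CD cells, a ratio of 7.75 with a 95% exact conditional interval of 2.34 to 40.3 for counting error only. On normalized counts the log2 ratio was 2.82, and 1.82 without EV replicate 1. No test was run on this sum, and the counts are too few to describe single alpha genes.

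The sum over the 18 beta genes, in normalized counts, was 383 ± 64.8 (SD, n = 2) in EV against 539 ± 32.4 (SD, n = 2) in TET1-CD cells, with both TET1-CD libraries higher, a log2 ratio of 0.49. Without PCDHB2 the log2 ratio was 0.65. In contrast, the sum over the 21 gamma genes was 4098 ± 173 (SD, n = 2) in EV against 3412 ± 51.0 (SD, n = 2) in TET1-CD cells, a log2 ratio of -0.26. PCDHGC3 made up most of this sum, and without it the sum of the other 20 genes was 969 ± 3.32 (SD, n = 2) in EV against 1087 ± 79.3 (SD, n = 2) in TET1-CD cells, so the log2 ratio turned to 0.17. Within the gamma cluster, the 12 A type genes summed to 704 ± 15.1 (SD, n = 2) and 754 ± 37.1 (SD, n = 2) and the 6 B type genes to 211 ± 5.48 (SD, n = 2) and 298 ± 40.4 (SD, n = 2) in EV and TET1-CD cells, respectively. The 3 C type genes summed to 3183 ± 193 (SD, n = 2) in EV against 2360 ± 26.5 (SD, n = 2) in TET1-CD cells. PCDHGC3 held 77.1% and 75.6% of the gamma counts in EV against 69.5% and 66.8% in TET1-CD cells. The B types held 4.91% and 5.40% in EV against 7.98% and 9.47% in TET1-CD cells. These are shares of fragments, not scaled to length. The groups of libraries did not overlap in any of these sums and shares, on which no test was run. Among all genes tested, both TET1-CD libraries lay above both EV libraries in 30.8% and below in 30.2%. Several of the sums contain the same genes and the shares are parts of a whole, so these separations are not independent of each other.

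**Figure D5:**
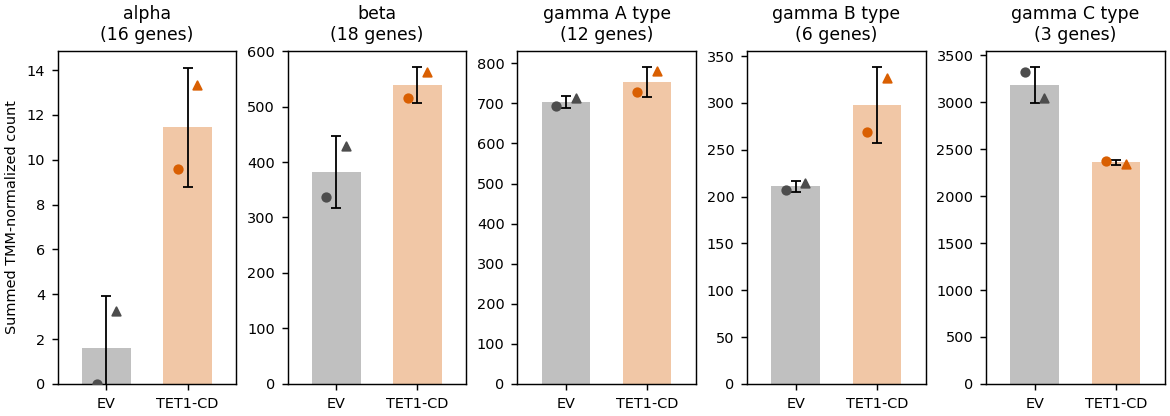
Summed TMM-normalized counts (y axis, from 0, with a scale of its own in each panel) for the alpha and beta clusters and the A, B and C types of the gamma cluster. Bars show the mean of 2 libraries, error bars the SD and symbols the single libraries. The sums of the beta cluster and the B types are higher in TET1-CD cells (log2 ratios of 0.49 and 0.50), and the sum of the C types is lower (-0.43).

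Fragments from the shared exons of a cluster do not show which gene they came from. In GENCODE release 44 on GRCh37, the gamma genes share exons of 59, 89 and 2029 bases at chr5:140874374-140874432, chr5:140884960-140885048 and chr5:140890514-140892542. These exons made up a median of 45.6% of the spliced length of the 22 gamma transcripts that carry them, and the 3 shared exons of the alpha cluster (59, 89 and 2721 bases) a median of 53.1%. A fragment from a shared exon had to be divided among genes by estimation. Counts within 0.01 of a whole number in every library were found for all 18 beta genes but for 0 of the 21 gamma genes. The gamma counts of single genes are therefore uncertain by this division. How fragments that match several similar beta genes were treated is not given in the sources used here. Almost all gamma counts belonged to transcripts with the shared exons. The 2 gamma transcripts without the last shared exon had 12 counts in EV replicate 1, all from PCDHGA1 (0.262% of the gamma counts) and rounded to 0 in the other 3 libraries.

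Among 24 genes that act on clustered protocadherin promoters or on DNA methylation, all of which were tested, TET1 alone was called. At an adjusted p under 0.05 with no limit on fold change, 3 were higher (the introduced TET1, DNMT1 and UHRF1) and 3 lower (TET2, REST and STAG2). The share of all genes at this cutoff is not given here, so these counts cannot be judged against it. TET2, another methylcytosine dioxygenase, had 852 and 614 counts with EV against 531 and 590 with TET1-CD (log2 fold change -0.36, SE 0.09, adjusted p = 0.0216 from edgeR). REST, a repressor of neuronal genes, had 2020 and 1673 counts with EV against 1455 and 1633 with TET1-CD (log2 fold change -0.24, SE 0.06, adjusted p = 0.0150 from edgeR). Without TET1-CD replicate 1 the adjusted p from edgeR was 0.147 for TET2 and 0.186 for REST, and without TET1-CD replicate 2 it was 0.124 and 0.173. DNMT1, the maintenance methyltransferase, and its partner UHRF1 had log2 fold changes of 0.27 and 0.23. CTCF (log2 fold change -0.08), SMCHD1 (0.00) and DNMT3B (-0.04) did not pass. Among 20 genes for signalling partners and proteases of these proteins, none was called by edgeR or DESeq2. An unadjusted p under 0.05 was found for 5, again without a share of all genes to set beside it. The kinases PTK2 and PTK2B, which the cytoplasmic parts of the alpha and gamma proteins are known to bind, passed the adjusted p with log2 fold changes of -0.27 and -0.28.

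Of 22 protocadherin and large cadherin genes outside the clusters, 9 were tested and, beside 2.72% of all genes tested, 1 rose. This was DCHS2, a large cadherin, with 9 and 5 counts for EV against 37 and 39 for TET1-CD (log2 fold change 2.44, SE 0.40, adjusted p = 0.00254 from edgeR). PCDH1, an epithelial protocadherin on the same arm of chromosome 5, had 811 and 707 counts with EV against 412 and 479 with TET1-CD. Its log2 fold change was -0.76 (SE 0.08, adjusted p = 1.63e-04 from edgeR), short of 2-fold. PCDH12, known from the endothelium, had 20 and 14 counts with EV against 8 and 5 with TET1-CD (log2 fold change -1.35, adjusted p = 0.0921 from edgeR). Within 500 kb of the clusters lay 55 other genes, among them PCDH1 and PCDH12, and 26 of the 55 were tested. At an adjusted p under 0.05 from edgeR with no limit on fold change, 4 were higher and 2 lower, with no share of all genes given here. Of the 26, 1 was called higher, too few to be set apart from the 2.72% of all genes tested. This gene, AC005618.6, lies on GRCh37 at chr5:140705777-140708924, just before the start of PCDHGA1 at base 140710252, and had 6 and 5 counts with EV against 35 and 26 with TET1-CD (log2 fold change 2.47, SE 0.46, adjusted p = 0.00518 from edgeR, and 0.0955 without TET1-CD replicate 1). TAF7, a general transcription factor gene between the beta and gamma clusters, had 2708 and 2506 counts with EV against 2418 and 2778 with TET1-CD, and its log2 fold change was 0.01.

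Markers of other cell types were mostly low. Of 10 neuronal markers, 3 were tested (MAP2, SNAP25 and SYP) and none was called by edgeR or had an unadjusted p under 0.05. Their summed normalized counts were 161 and 213 in EV against 172 and 211 in TET1-CD cells, and ELAVL3, NEUROD1 and STMN2 were at 0 in every library. Of 8 fibroblast markers, 2 were tested and COL1A1 rose, with 88 and 70 counts for EV against 266 and 314 for TET1-CD. The fibroblast sum was 103 and 97.4 in EV against 321 and 335 in TET1-CD cells, while the other 6 genes, among them DCN, LUM, COL1A2 and COL3A1, had under 10 counts in each library. Of 5 leukocyte markers, 1 was tested, and edgeR called 0 (also 0 at an unadjusted p under 0.05), with sums of 16.2 and 18.3 in EV against 13.8 and 12.4 in TET1-CD cells. The part of COL1A1-expressing cells in the protocadherin counts was not tested. Among the urothelial markers, GATA3 and KRT19 rose, with log2 fold changes of 1.25 and 1.01.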

How the data were processed

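RNAseq of 2 EV and 2 TET1-CD libraries of T24 cells was analysed, grouped by their labels. The files as deposited list, per transcript, expected counts (fragments estimated by a model, with decimals). They also hold deposited FPKM values, which divide by length and depth. The submitters' processing notes name cutadapt 1.9.1, HISAT2 2.0.1, HTSeq 0.6.1, DESeq2 and hg19. How shared fragments were divided, and the annotation release, are not given in the sources used here.

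Expected counts were added up per gene and rounded. Libraries held 17442143 to 20295266 fragments, and 3 counts was taken as the lower limit of a library. Groups were compared with edgeR 4.0.16 in R 4.3.3 (quasi-likelihood test, TMM normalization, filterByExpr, no block). P-values were adjusted by Benjamini-Hochberg over 14573 genes. Standard errors (SE) were derived as the log2 fold change over the square root of F. Normalized counts are counts divided by the effective library size relative to its mean. Intervals of count ratios are exact conditional 95% intervals, and with the lower limit they cover counting error only. The test was checked on simulated data.

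The genes named were TET1, each called member, the 3 members with most counts in each cluster, the C types, and in the regulator list and in that of protocadherins outside the clusters the called genes and those with the smallest p, plus called neighbours within 500 kb. PCDHB8, PCDHB12, PCDHB15, PCDHGA3, TAF7 and the markers were named after their values were seen. DNMT1, UHRF1, STAG2, CTCF, SMCHD1, DNMT3B, PTK2 and PTK2B were also named outside this rule. Members and lists were chosen with earlier results of these data known. Promoters came from RefSeq GRCh38.p14 and exons from GENCODE release 44 on GRCh37. The alternatives were DESeq2 1.42.0, RLE normalization, no filter, library size only, a replicate block, 10 counts in every library, single transcripts, other thresholds and the omission of each library.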

Additional observations from a re-analysis of the deposited data

How the results depend on the processing

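Of the 9 members that rose, 9 were also called with RLE normalization, library size only, no filter and the replicate block. DESeq2 called 6, and so did edgeR with 10 counts required in every library, but these were not the same 6. DESeq2 lost PCDHB6, PCDHGB6 and PCDHGA12, and the stricter filter left out PCDHB5, PCDHGA2 and PCDHGB4. PCDHB13, PCDHGA1 and PCDHGB1 were called in both. When libraries were omitted one at a time, 4 to 9 members were called higher, with 4 without TET1-CD replicate 1 and 5 without TET1-CD replicate 2, and in both cases all of these were among the 9. With 1 library left, the lone sample was assumed to vary like the other group. Tests of single transcripts called 0 members, and the cause was not tested. PCDHB5, PCDHB13, PCDHGB1, PCDHGB4, PCDHGB6 and PCDHGA12 had 1 listed transcript each, so their counts were the same in both tests. PCDHB6, PCDHGA1 and PCDHGA2 had 2 each. The replicate numbers were not stated to mark shared cultures. The deviations of same-numbered libraries correlated with r = 0.01 across 14573 genes. With so few libraries, this value cannot show whether same-numbered libraries shared a culture or a preparation. The replicate block called 568 genes in all, in place of 549. Called lower were 0 members, 1 with no fold change threshold (PCDHGC3) and 0 to 1 when a library was left out (PCDHGC4 without EV replicate 2). Called higher among the protocadherins outside the clusters was 1 gene, 0 with 10 counts in every library, 2 with no filter and 1 to 2 when a library was left out. Among the neighbours it was 1 gene, 0 with 10 counts in every library and 0 to 1 when a library was left out (0 without TET1-CD replicate 1). The stricter filter left out genes with few EV counts by construction. Without PCDHGC3 the log2 ratio of the gamma sum reversed to 0.17. With libraries omitted, the log2 fold change of PCDHB2 ranged from -0.26 to 0.045 (0.045 without EV replicate 2 and 0.0063 without TET1-CD replicate 2), and that of PCDHGC5 from -0.72 to 0.0042 (0.0042 without TET1-CD replicate 1). Neither passed the test in any fit. Without EV replicate 2 the sum of the alpha cluster gave no ratio, since EV was then at 0.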
